A study of Mus musculus with 44 samples.

Results

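Hepatokines and myokines are hormones that liver and skeletal muscle secrete into the blood. Transcripts of 10 of them were followed in RNA-Seq of both tissues: Fgf21, Gdf15, Igf1, Igfbp2, Angptl4, Angptl8, Fetub, Lect2, Mstn and Fst. The members were listed by name and matched by symbol to the Ensembl identifiers of the count table, and 10 of 10 were found among its 38202 genes. The C57BL/6N males carried a constitutive CRISPR/Cas9 deletion of part of the promoter and the first exons of Slc16a13, a lactate transporter gene (KO), or were wild-type littermates (WT). All were given a high-fat diet (HFD) for 15 weeks and were killed at 20 weeks of age, and the study's methods name an overnight fast before killing unless stated otherwise. No mice on normal chow were among these libraries, the labels do not say which skeletal muscle was taken, and 1 deleted allele stands for the genotype. Liver and muscle came from the same animals, 11 WT and 11 KO, which gave 44 libraries.

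The libraries held between 20150712 and 35218243 reads counted on genes. Slc16a13 lay between 99 and 302 reads in WT livers and between 0 and 8 in KO livers, a log2 fold change of -5.45 (SE 0.3, adjusted p = 2.8e-11; edgeR's quasi-likelihood test, adjusted over all tested genes by Benjamini-Hochberg, here and below). In muscle it lay between 4 and 22 reads in WT and between 11 and 40 in the group labelled KO. That difference was not called (log2 fold change 0.64, SE 0.22, unadjusted p = 0.0071, adjusted p = 0.49), and its direction was opposite to a loss. Over the mice labelled KO, Slc16a13 had 39 reads in liver and 218 in muscle. Their log2 difference of liver over muscle was -2.25 (SE 0.34, adjusted p = 1.7e-06). These few reads thus do not show the loss in muscle, and why they were not lower was not tested. The group is named below by its label. Livers with the same animal numbers carried the loss. The paper reports reduced Slc16a13 expression in multiple knockout tissues, measured by PCR at exon junctions inside the deleted region. The deletion spans the first 3 exons, and counts per gene do not say on which exons the reads fell. The one gene called in muscle was Slc16a11, the neighbouring gene, at a log2 fold change of 2.03 (adjusted p = 0.014) in the group labelled KO. The paper reports higher Slc16a11 expression in knockout liver on the high-fat diet. The livers of 4 KO mice (532, 583, 602 and 611) held fewer reads on long genes than all other livers. For each liver, log2 CPM (counts scaled to library size) minus the gene's mean over all livers was fitted on log2 gene length. The slopes of these 4 livers lay between -0.54 and -0.08, against 0.04 to 0.1 in WT livers. A slope of 0 thus stands for the average liver and not for the absence of a length effect. Liver values are given with all libraries, and without these 4 where the value moved by over 1.5 times. The livers carried hepatocyte markers at a summed 91010 to 157300 CPM, and the muscles carried myofibre markers at 123800 to 190800 CPM. The 4 livers with few reads on long genes had the highest hepatocyte sums. These were 157300, 143600, 138300 and 125200 CPM in mice 602, 532, 583 and 611, with the next liver at 124400 CPM. The liver of mouse 532 also had the highest macrophage sum, 1050 CPM. The part of this in the liver values below was not tested. In bulk tissue, fewer cells of a type and less RNA per cell cannot be told apart.

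FGF21 acts through FGF receptors with the co-receptor beta-Klotho, encoded by Klb, and GDF15 through GFRAL and RET in the hindbrain. IGF-1 is the growth factor that growth hormone induces in liver, and IGFBP2 is one of the proteins that bind it in blood. ANGPTL4 and ANGPTL8 inhibit lipoprotein lipase, the enzyme that releases fatty acids from circulating triglycerides, the first mainly in fasting and the second after feeding. Fetuin B, encoded by Fetub, and LECT2 are liver-secreted proteins linked to insulin resistance, while myostatin, encoded by Mstn, restrains muscle growth and follistatin, encoded by Fst, binds and inhibits myostatin and activins.

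Promoter sequences were read from RefSeq's table for GRCm38.p6, which held 8 of the 10 members. The counts' own build is not given in the sources used here, and no count was placed by coordinates. The 250 bases before the start are shown for Fgf21 and Angptl8, the members that hold the composite site named below, and for Lect2 and Mstn, the members closest to a single tissue. Capitals mark matches on either strand to 5 searched motifs, which do not overlap in these windows: the E-box CANNTG, the TATA box TATAAA, the HNF1 element GTTAAT, the MEF2 pattern (CTA, 4 free bases, TAG) and the composite site of C/EBP and ATF factors TGATGNAA.
Fgf21 (GRCm38.p6 chr7:45615491-45615740, minus strand): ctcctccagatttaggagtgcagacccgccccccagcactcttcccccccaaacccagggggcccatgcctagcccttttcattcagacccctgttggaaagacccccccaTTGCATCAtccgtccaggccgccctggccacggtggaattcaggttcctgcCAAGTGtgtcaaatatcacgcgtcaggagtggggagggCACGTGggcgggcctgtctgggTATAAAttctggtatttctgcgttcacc
Angptl8 (GRCm38.p6 chr9:21835260-21835509, plus strand): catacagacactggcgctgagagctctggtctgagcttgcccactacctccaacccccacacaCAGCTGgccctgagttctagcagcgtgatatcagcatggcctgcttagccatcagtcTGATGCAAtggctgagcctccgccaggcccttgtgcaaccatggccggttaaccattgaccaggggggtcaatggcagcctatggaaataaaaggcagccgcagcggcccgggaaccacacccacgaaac
Lect2 (GRCm38.p6 chr13:56548539-56548788, minus strand): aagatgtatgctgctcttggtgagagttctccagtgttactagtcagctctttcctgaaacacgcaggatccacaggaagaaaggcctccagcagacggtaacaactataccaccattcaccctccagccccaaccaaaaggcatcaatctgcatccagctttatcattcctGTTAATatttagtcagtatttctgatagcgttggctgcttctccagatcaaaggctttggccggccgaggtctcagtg
Mstn (GRCm38.p6 chr1:53061390-53061639, plus strand): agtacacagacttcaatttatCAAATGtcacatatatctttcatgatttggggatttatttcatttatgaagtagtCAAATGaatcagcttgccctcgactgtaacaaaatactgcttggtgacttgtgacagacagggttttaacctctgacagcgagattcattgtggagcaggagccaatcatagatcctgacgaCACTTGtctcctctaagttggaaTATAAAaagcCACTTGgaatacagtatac
Among all 32851 windows of the table, 66.2% held an E-box, 12.4% a TATA box, 6.43% GTTAAT, 3.2% the MEF2 pattern and 3.45% the composite site. The composite site stood 139 bases before the Fgf21 start and 130 bases before the Angptl8 start, and among the 8 members only those 2 held it, so that neither of the 2 Gdf15 windows did. The Mstn window held 4 E-boxes and a TATA box, and the Lect2 window held GTTAAT alone. These matches are letters in a window and not binding sites.

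All 10 members differed between the tissues in both genotypes. In liver 8 were higher (Fgf21, Gdf15, Igf1, Igfbp2, Angptl4, Angptl8, Fetub, Lect2) and in muscle 2 (Mstn, Fst), at an adjusted p of at most 0.00012. This has to be read against a background in which 45.5% of 13907 genes were higher and 45.5% lower in WT liver than in WT muscle, and 43.9% were higher and 42.8% lower of 13981 genes in the KO mice. Per gene length, in RPKM (counts scaled to gene length and library size), the order of median levels in WT liver was Fetub at 329, Igf1 at 292, Igfbp2 at 186, Lect2 at 130, Angptl4 at 97.2, Angptl8 at 18.4, Fgf21 at 6.78, Gdf15 at 4.82 and Fst at 1.001 RPKM. KO livers had the same order, from Fetub at 411 to Fst at 0.438 RPKM. Neighbours in this order overlapped between mice, except Angptl4 and Angptl8 in KO livers and Fst and the undetected Mstn in both genotypes. In WT muscle the order was Angptl4 at 24.9, Mstn at 19.8, Igf1 at 2.78 and Fst at 2.56 RPKM, followed by 6 members with medians of at most 0.076. Angptl4 and Mstn overlapped, as did Igf1 and Fst, but neither pair overlapped the next one. The muscles labelled KO gave the same first 4, at 26.02, 19.1, 2.64 and 2.48 RPKM.

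Mstn was detected in muscle and not in liver. It had 0 reads in all 22 livers, and between 969 and 1903 reads in each WT muscle. Over the group, with a floor of 3 reads for the livers, muscle was at least 4797-fold higher in WT and at least 4739-fold higher in the KO mice. Lect2 was close to the reverse, with 31652 reads in WT livers and 1 read in WT muscles, a ratio of 3.336e+04 (95% counting interval 5988 to 1.318e+06). In the muscles labelled KO it had 0 reads, so that liver was at least 1.118e+04-fold higher. Intervals and floors cover counting error only.

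Fetub and Igfbp2 followed, with WT liver over muscle ratios of 4290-fold (log2 12.07, SE 0.16) and 1840-fold (log2 10.85, SE 0.49). In the KO mice these ratios were 7140-fold and 6200-fold. Angptl8 and Fgf21 stood 359-fold and 118-fold higher in WT liver, and 258-fold and 128-fold higher in KO liver. Gdf15 was 114-fold higher in WT (log2 6.84, SE 0.8) and 53-fold higher in KO mice (log2 5.73), and without mouse 624 the WT difference was also 5.73 on the log2 scale (SE 0.46). Angptl4 and Igf1 were detected in both tissues at levels well above a few reads, and liver was 3.85-fold and 53.4-fold higher in WT. In the KO mice these 2 ratios were 4.27-fold and 42.9-fold. Fst was the one member with counts in both tissues that was higher in muscle, with a log2 difference of liver over muscle of -1.18 (SE 0.25, adjusted p = 0.00012) in WT and -1.8 (SE 0.31, adjusted p = 8.2e-06) in the KO mice.

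The 6 members at the bottom of the muscle order rested on few reads. Over the 22 muscle libraries Igfbp2 had 55 reads, Fetub 60, Gdf15 58, Angptl8 48, Fgf21 44 and Lect2 1. The Igfbp2 reads were uneven: 15 and 16 of the 38 WT reads were in mice 516 and 616, and 6 of the 11 WT libraries had 0. Mouse 616 also held the highest WT muscle count of Fgf21 (9 reads) and of Gdf15 (13 reads). Albumin transcript, the most abundant message of hepatocytes, had a median of 13 reads in WT muscles and 40 in those labelled KO. For each 1000 Alb reads, the hepatocyte transcript Apoa1 gave 80.2 reads in WT muscle (95% exact interval 48.8 to 125) and 90.1 in WT liver, and Ttr gave 95.4 (60.6 to 144) and 84.2. Fetub gave 130 reads (88 to 186) per 1000 Alb reads in WT muscle against 7.38 in WT liver, and 41.3 (26.8 to 61.2) against 8.4 in the KO mice. Angptl8 gave 68.7 (40.1 to 111) against 0.355 in WT and 47.7 (31.9 to 68.8) against 0.349 in the KO mice. Lect2 gave 3.82 (0.0963 to 21.45) against 1.67 in WT, which the single read cannot separate. Where the muscle reads of these members came from was not tested.

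Between genotypes, 0 of the 9 members that could be tested in liver and 0 of the 4 in muscle were called at an adjusted p under 0.05. The background was low: 0.0231% of 13005 genes were called in liver and 0.00754% of 13266 in muscle. At an unadjusted p under 0.05, 3 of the 9 members were reached in liver (Gdf15, Angptl4 and Fetub), where 12.9% of all genes were, and 0 of 4 in muscle, where 8.64% were. By direction, 1272 of the 13005 genes were higher and 403 lower in KO livers at that p. In muscles labelled KO 499 of the 13266 genes were higher and 647 lower. The counts of higher and lower list genes below have to be read against these. The interaction of genotype and tissue can be read for the 3 members with counts in both tissues, Igf1 (-0.32, SE 0.23, adjusted p = 0.44), Angptl4 (0.15, SE 0.29, adjusted p = 0.81) and Fst (-0.62, SE 0.4, adjusted p = 0.41), and called none of them, beside 0.00678% of 14739 genes at an adjusted and 16.2% at an unadjusted p under 0.05. The other 7 entered it through 1 tissue and are not counted. Mstn in liver and 6 members in muscle (Fgf21, Gdf15, Igfbp2, Angptl8, Fetub, Lect2) did not pass the filter on low counts and have no genotype test.

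**Figure D1:**
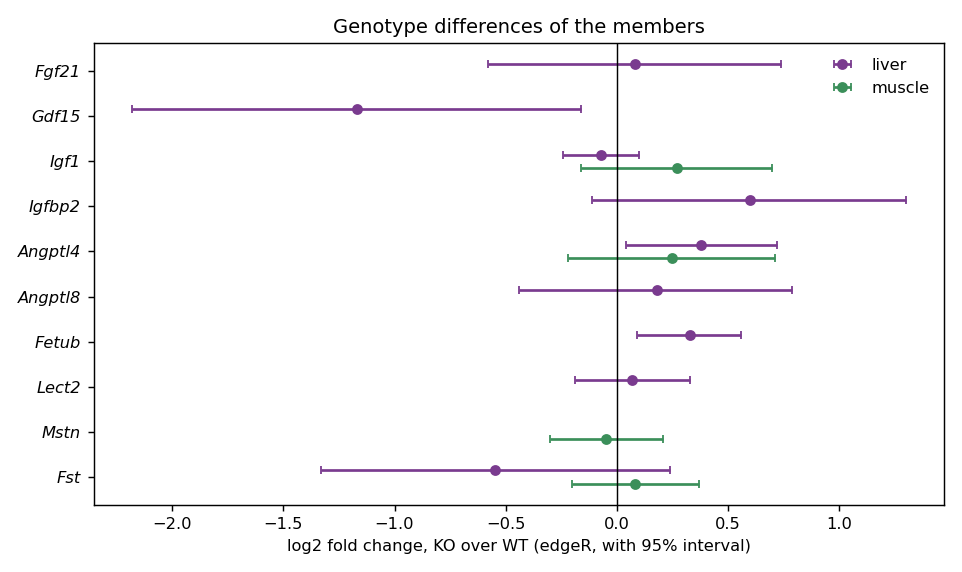
Log2 fold change of KO over WT (x axis) for each member (y axis), with a 95% interval derived from edgeR's F statistic, in liver (9 members) and muscle (4 members). The intervals of Gdf15, Angptl4 and Fetub in liver lay on 1 side of 0 before adjustment over all genes, at -2.18 to -0.16, 0.04 to 0.72 and 0.09 to 0.56, and those of the other members crossed 0.

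Fgf21 (ENSMUSG00000030827), a starvation and stress hormone of liver, was at 3.23, 6.56 and 21.2 CPM in WT livers and 3.04, 8.97 and 15.7 CPM in KO livers (lowest, median and highest of 11 mice; CPM scaled by TMM within the tissue, as below). The groups overlapped almost fully, and 2 WT livers, of mice 623 and 624, stood highest. KO over WT, the log2 fold change was 0.08 (SE 0.32, 95% interval -0.58 to 0.74, adjusted p = 0.89), and 0.05 without the 4 livers with a slope below 0.

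Gdf15 (ENSMUSG00000038508), a stress-induced hormone of the TGF-beta family, was at 2.38, 6.51 and 65.3 CPM in WT livers and 2.37, 4.20 and 8.76 CPM in KO livers. A single WT liver, of mouse 624, lay far above the rest with 2328 reads, and the next WT liver was at 9.95 CPM. Its log2 fold change was -1.17 (SE 0.49, adjusted p = 0.38), and -0.19 (adjusted p = 0.71) without mouse 624. Its log2 SD was 1.33 among WT livers, which mouse 624 carried, and 0.62 among KO livers, where Fst (1.02), Igfbp2 (0.97), Fgf21 (0.75) and Angptl8 (0.74) varied more. The liver of mouse 624 also held the highest WT values of Fgf21 and Angptl8.

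The receptors for both hormones were measured with them. Of the 7 receptor and co-receptor genes 5 were tested in liver and 6 in muscle, and 0 were called or reached an unadjusted p under 0.05. In liver the 2 with the smallest p were Fgfr1, with medians of 4.26 CPM in WT and 4.78 in KO (log2 fold change 0.19, SE 0.1, adjusted p = 0.39), and Fgfr3 (-0.18, SE 0.11, adjusted p = 0.41; -0.08 without the livers with a slope below 0). In muscle they were Klb (0.53, SE 0.44, adjusted p = 0.75) and Fgfr3 (-0.12, SE 0.17, adjusted p = 0.86). Gfral, the receptor of GDF15, had a median of 0 RPKM in all 4 groups.

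The integrated stress response, in which ATF4 switches on Fgf21 and Gdf15 among other genes, had 11 of 12 listed genes tested in liver. None was called, and 1 was higher at an unadjusted p under 0.05, with a median log2 fold change of 0.11 against -0.01 over all tested genes. Ddit3, a stress transcription factor, had medians of 10.6 CPM in WT and 13.8 in KO livers (log2 fold change 0.54, SE 0.24, adjusted p = 0.38), and Trib3, its target, 8.595 and 10.2 CPM (0.31, SE 0.15, adjusted p = 0.38). Without the 4 livers with a slope below 0 these values were 0.11 and 0.19, and Ddit3 was at 0.32 without mouse 532 alone. In muscle, 12 were tested and 0 called, led by Asns (0.66, SE 0.27, adjusted p = 0.52) and Cebpb (-0.36, SE 0.23, adjusted p = 0.67). PPAR alpha, the fasting regulator that also drives Fgf21 and Angptl4, was represented by 12 genes in liver, none called and 2 higher at an unadjusted p under 0.05: Acot1 (0.49, SE 0.21) and Creb3l3 (0.22, SE 0.1), both with an adjusted p of 0.38, and at 0.27 and 0.04 without those livers. Of 9 tested in muscle 0 were called, and the 2 smallest p were those of Vnn1 (0.55, SE 0.3, adjusted p = 0.62) and Cpt1a (0.15, SE 0.09, adjusted p = 0.65).

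**Figure D2:**
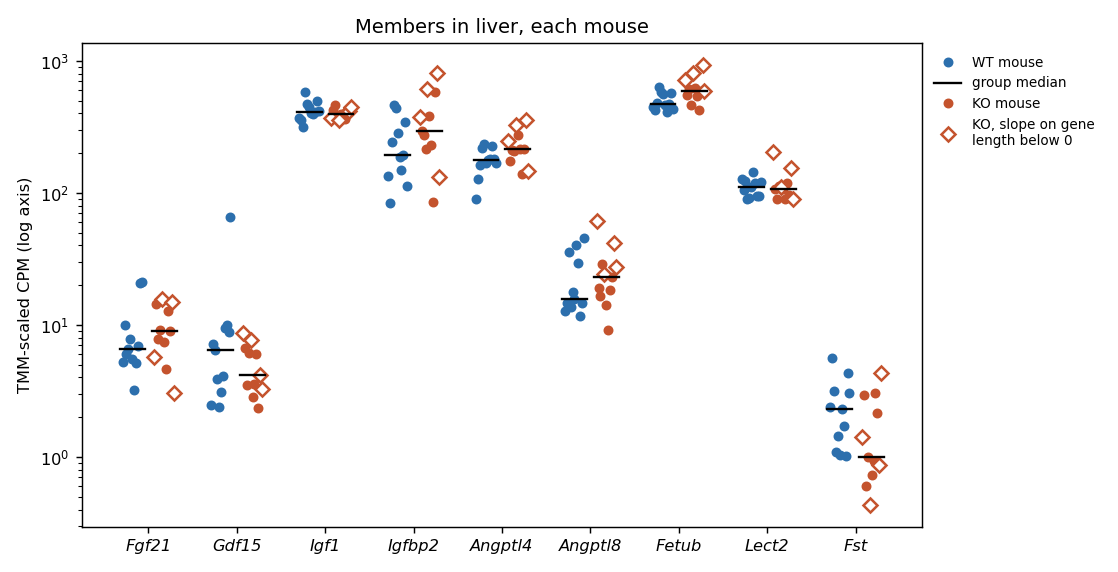
TMM-scaled CPM on a log axis (y) of the 9 members detected in liver (x), a point per mouse, 11 WT and 11 KO, with the group median as a line; open diamonds are the 4 KO livers with a slope on gene length below 0. Gdf15 has 1 WT liver at 65.3 CPM, and the diamonds hold the highest KO values of 8 members, all but Igf1, and the lowest of Fgf21, Igf1 and Fst.

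Igf1 (ENSMUSG00000020053) was at 312, 410 and 577 CPM in WT livers and 359, 398 and 464 CPM in KO livers. In CPM the KO range lay wholly within the WT range. The log2 SD was 0.12 among KO livers, with 5.16% of tested genes below it, and 0.24 among WT livers, with 66.6% below it. The median SD of all tested genes was 0.35 in KO and 0.17 in WT livers. In RPKM the KO range was the wider, 239 to 344 against 257 to 320, so that the narrow KO spread depends on the scaling. Its log2 fold change was -0.07 (SE 0.08, 95% interval -0.24 to 0.1, adjusted p = 0.64). In muscle, where IGF-1 acts locally, it was at 3.89, 8.62 and 11.1 CPM in WT and 5.29, 8.76 and 20.01 CPM in libraries labelled KO. Those of mice 611 and 561 lay above every WT muscle, and the log2 fold change was 0.27 (SE 0.21, adjusted p = 0.73).

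Igfbp2 (ENSMUSG00000039323) was at 84.3, 193 and 465 CPM in WT livers and 85.1, 292 and 809 CPM in KO livers. The KO livers of mice 602, 583 and 598 lay above every WT liver, and 2 of them are among those with few reads on long genes. On the log2 scale the fold change was 0.6 (SE 0.34, adjusted p = 0.39), and 0.3 without the 4 livers with a slope below 0.

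Of the 20 genes of the growth hormone and IGF axis, 17 were tested in liver and 19 in muscle, and 0 were called in either. None reached an unadjusted p under 0.05 in liver, where the smallest p were those of Igfbp4, an abundant IGF-binding protein at medians of 1554 and 1715 CPM (log2 fold change 0.17, SE 0.09, adjusted p = 0.38), and Stat5a, a mediator of growth hormone signalling (-0.22, SE 0.13, adjusted p = 0.39). Without the 4 livers with a slope below 0, Igfbp4 was at 0.02. In muscle 3 were higher at an unadjusted p under 0.05, among them Igfbp3 (0.22, SE 0.08, adjusted p = 0.51) and Igfbp7 (0.13, SE 0.06, adjusted p = 0.53). The list's median log2 fold change in muscle was 0, against 0.01 over all tested genes.

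Angptl4 (ENSMUSG00000002289) was at 89.5, 177 and 236 CPM in WT livers and 139, 214 and 356 CPM in KO livers. The KO livers of mice 602, 583, 587 and 532 lay above every WT liver, and 3 of them are among those with few reads on long genes. On the log2 scale the fold change was 0.38 (SE 0.16, adjusted p = 0.38), and 0.22 without the 4 livers with a slope below 0. In muscle it was at 26.97, 47.2 and 81.7 CPM in WT and 33.03, 47.6 and 115 CPM in libraries labelled KO. The medians were close, and mice 561 and 611 alone exceeded every WT muscle. In muscle the log2 fold change was 0.25 (SE 0.22, adjusted p = 0.77).

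Angptl8 (ENSMUSG00000047822) was at 11.6, 15.6 and 45.4 CPM in WT livers and 9.19, 23.1 and 60.9 CPM in KO livers. The groups overlapped apart from KO mouse 532 above and KO mouse 588 below the WT range. Its log2 fold change was 0.18 (SE 0.3, adjusted p = 0.74), and it changed sign to -0.31 without the 4 livers with a slope below 0. Within KO livers, the level correlated with the slope on gene length at r = -0.81 (permutation p = 0.0014, adjusted p = 0.035 over 48 relations) and rho = -0.65 (permutation p = 0.032, adjusted p = 0.26), and r was -0.42 without the 2 mice farthest from the median slope, so that it rests on those.

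Of 14 genes around lipoprotein lipase, 14 were tested in liver and 8 in muscle, with 0 called. In liver 3 were higher at an unadjusted p under 0.05, led by Lmf1, which matures lipases (log2 fold change 0.24, SE 0.09), and Apoc3, an apolipoprotein that slows lipolysis (0.36, SE 0.15), both with an adjusted p of 0.38. Without the 4 livers with a slope below 0, Lmf1 was at 0.08 and Apoc3 at -0.03. In muscle 2 were lower at an unadjusted p under 0.05: Furin, a protease that cleaves ANGPTL proteins (-0.15, SE 0.06, adjusted p = 0.51), and Angptl6 (-0.21, SE 0.1, adjusted p = 0.55). The lipogenic genes, which insulin drives as it does Angptl8, had 9 of 10 tested in liver. None was called and 5 were lower at an unadjusted p under 0.05, with a median log2 fold change of -0.3 against -0.01 over all tested genes. Fasn, the fatty acid synthase, had medians of 111 CPM in WT and 84.1 in KO livers (log2 fold change -0.53, SE 0.12, adjusted p = 0.38), and Elovl6, a fatty acid elongase, 36.6 and 27.5 CPM (-0.47, SE 0.12, adjusted p = 0.38). DESeq2 called Fasn (-0.52, adjusted p = 0.044), which was at -0.35 (adjusted p = 1, edgeR) without the 4 livers with a slope below 0, where Elovl6 was at -0.32. In muscle 10 were tested and 0 called, the smallest p being those of Mlxipl (-0.13, SE 0.04, adjusted p = 0.51) and Pnpla3 (0.28, SE 0.16, adjusted p = 0.65).

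Fetub (ENSMUSG00000022871), the member with the highest level per length in liver, was at 406, 473 and 628 CPM in WT livers and 427, 595 and 923 CPM in KO livers. Of the 11 KO livers 9 exceeded the WT median and 3 exceeded every WT liver, those of mice 602, 583 and 532, all among the livers with few reads on long genes. The log2 fold change was 0.33 (SE 0.11, unadjusted p = 0.0087, adjusted p = 0.38), and 0.13 without the 4 livers with a slope below 0. Within KO livers the level correlated with the slope at r = -0.78 (permutation p = 0.0041, adjusted p = 0.035) and rho = -0.8 (permutation p = 0.0044, adjusted p = 0.11). Without the 2 farthest mice r was -0.74 (adjusted p = 0.27). Among WT livers r was 0.37 (adjusted p = 0.42).

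Lect2 (ENSMUSG00000021539), a chemotactic protein of hepatocytes, was at 89.2, 111 and 144 CPM in WT livers and 89.3, 108 and 203 CPM in KO livers. The KO livers of mice 532 and 602 lay above the WT range and the other 9 within it. The difference on the log2 scale was 0.07 (SE 0.13, 95% interval -0.19 to 0.33, adjusted p = 0.76), and -0.1 without the 4 livers with a slope below 0. Its correlation with the slope in KO livers was r = -0.83 (permutation p = 0.0052, adjusted p = 0.035) and rho = -0.51 (permutation p = 0.11, adjusted p = 0.31), and r was -0.09 without the 2 farthest mice, so that it rests on those.

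Of 6 genes listed as relatives or binding partners of the fetuins and LECT2, 6 were tested in liver and 3 in muscle, with 0 called. In liver 3 were higher at an unadjusted p under 0.05, among them Ahsg, which encodes fetuin A, at medians of 6912 and 8095 CPM (log2 fold change 0.23, SE 0.09, adjusted p = 0.38), and Kng1, kininogen of the same cystatin family, at 1561 and 1687 CPM (0.2, SE 0.08, adjusted p = 0.38). Without the 4 livers with a slope below 0 they were at 0.1 and 0.05. In muscle, Tie1, a LECT2 receptor, had a log2 fold change of -0.03 (SE 0.07, adjusted p = 0.93) and Insr one of 0.01 (SE 0.04, adjusted p = 0.98). Of 20 other hepatokines, Ahsg among them, all were tested in liver, 0 were called, and 4 were higher and 1 lower at an unadjusted p under 0.05, with a median log2 fold change of 0.16. After Ahsg, Rarres2, the gene of chemerin, had the smallest p (0.31, SE 0.14, adjusted p = 0.38), and its value was -0.02 without the 4 livers with a slope below 0. In muscle 13 were tested and 0 called, led by Enho (-0.22, SE 0.09, adjusted p = 0.51) and Selenop, a selenium carrier (0.19, SE 0.09, adjusted p = 0.54).

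Mstn (ENSMUSG00000026100) was at 36.2, 55.6 and 66.8 CPM in WT muscles and 26.3, 52.5 and 66.6 CPM in those labelled KO. The groups overlapped apart from 1 library labelled KO, of mouse 611, which lay below every WT muscle. The difference on the log2 scale was -0.05 (SE 0.12, 95% interval -0.3 to 0.21, adjusted p = 0.93). Against the score of 7 slow or oxidative fibre markers, Mstn gave r = -0.65 (permutation p = 0.015, adjusted p = 0.08) and rho = -0.6 (permutation p = 0.056, adjusted p = 0.26) in WT muscles, and r = -0.65 (permutation p = 0.06, adjusted p = 0.22) and rho = -0.6 (permutation p = 0.056, adjusted p = 0.26) in those labelled KO. Neither relation passed adjustment, and without the 2 farthest mice r was -0.5 and -0.22.

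Fst (ENSMUSG00000021765) was at 3.03, 5.85 and 8.06 CPM in WT muscles and 4.79, 5.93 and 9.51 CPM in those labelled KO, with nearly equal medians. The log2 fold change was 0.08 (SE 0.14, adjusted p = 0.88). In liver it was at 1.01, 2.29 and 5.63 CPM in WT and 0.434, 1.004 and 4.35 CPM in KO mice. Of the 11 KO livers 6 lay below every WT liver and the other 5 within the WT range. In liver the log2 fold change was -0.55 (SE 0.38, 95% interval -1.33 to 0.24, adjusted p = 0.44), and the counts behind it were small, between 11 and 148 reads per liver.

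**Figure D3:**
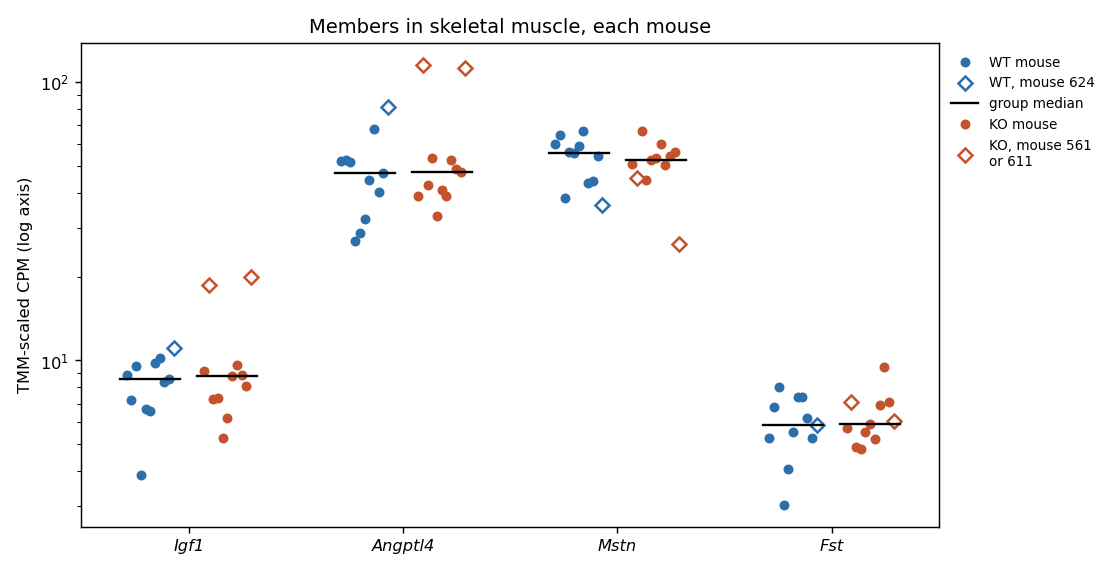
TMM-scaled CPM on a log axis (y) of the 4 members tested in muscle (x), a point per mouse, 11 WT and 11 labelled KO, with the group median as a line; open diamonds are mouse 624 (WT) and mice 561 and 611 (labelled KO). The diamonds hold the highest Angptl4 and Igf1 values of their groups, up to 115 and 20.01 CPM, and mice 611 and 624 the lowest Mstn values, at 26.3 and 36.2 CPM.

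Of 20 genes of the myostatin and activin axis, 14 were tested in liver and 16 in muscle, with 0 called. Inhba, an activin subunit, had medians of 1.22 CPM in WT and 0.644 in KO livers (log2 fold change -0.5, SE 0.24, adjusted p = 0.38), and Smad3, a signal transducer, 18.9 and 17.7 CPM (-0.15, SE 0.08, adjusted p = 0.38). Without the 4 livers with a slope below 0 they were at -0.2 and -0.03. In muscle the smallest p were those of Ltbp3, which holds latent TGF-beta (-0.15, SE 0.06, adjusted p = 0.52), and Acvr2b, the myostatin receptor (-0.2, SE 0.1, adjusted p = 0.6). Of 19 other myokines 11 were tested in liver and 17 in muscle, with 0 called. In liver the smallest p were those of Metrnl (0.54, SE 0.17, adjusted p = 0.38) and Dcn (-0.18, SE 0.12, adjusted p = 0.42), at 0.2 and -0.07 without the livers with a slope below 0, and in muscle those of Vegfb (-0.15, SE 0.06, adjusted p = 0.52) and Dcn, decorin of fibroblasts (0.19, SE 0.08, adjusted p = 0.53). Over all 133 genes of these lists, 20 of 113 tested in liver (17.7%) and 12 of 109 in muscle (11%) had an unadjusted p under 0.05, beside 12.9% and 8.64% of all genes.

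In muscle, Angptl4 and Igf1 were highest in the animals with the highest fat cell marker scores. The adipocyte score, the mean log2 CPM of 7 markers, was 7.39 and 6.97 in the muscles of mice 561 and 611, the highest of the 22, and 6.17 in that of mouse 624, the highest of the WT muscles. All 7 markers were detected in both groups, and their summed level lay between 698 and 1037 CPM in WT and between 691 and 1681 CPM in muscles labelled KO. By this sum mouse 624, at 960 CPM, stood below WT mice 612 and 516, at 1037 and 1012 CPM. Within WT muscles, Angptl4 correlated with the score at r = 0.86 (permutation p = 0.00051, adjusted p = 0.024) and rho = 0.85 (permutation p = 0.0015, adjusted p = 0.071), and r was 0.85 (adjusted p = 0.11) without the 2 farthest mice. In muscles labelled KO r was 0.9 (permutation p = 0.0043, adjusted p = 0.035) and rho 0.57 (permutation p = 0.07, adjusted p = 0.26), and r was 0.25 without mice 561 and 611, so that it rests on them. Igf1 gave r = 0.75 (permutation p = 0.0042, adjusted p = 0.035) and rho = 0.77 (permutation p = 0.0077, adjusted p = 0.12) in WT muscles, and r = 0.68 without the 2 farthest. In muscles labelled KO it gave r = 0.87 (permutation p = 0.0048, adjusted p = 0.035) and rho = 0.54 (permutation p = 0.095, adjusted p = 0.3), and r = 0.27 without the 2 farthest. With the score as a covariate, the genotype values in muscle were 0.05 for Angptl4 and 0.06 for Igf1 (log2 fold change), and without mice 561, 611 and 624 they were 0 and -0.02. Other marker sums were high in the same muscles: those of mice 561, 611 and 624 had hepatocyte sums of 172, 125 and 92.6 CPM, macrophage sums of 64.3, 73.5 and 55.8 CPM and endothelial sums of 292, 310 and 269 CPM, the highest of the WT muscles for mouse 624 and the 2 highest of those labelled KO for the others. Mice 561 and 611 also had the highest fibroblast sums, 909 and 958 CPM, and lymphocyte sums, 7.08 and 6.62 CPM, and mouse 611 had the lowest myofibre sum, 123800 CPM. The hepatocyte sum in muscle was mostly Trf, at medians of 27.6 RPKM in WT and 28.5 in muscles labelled KO. No other marker of that list had a median above 0.74. The mean log2 CPM of the hepatocyte markers gave another order. By it mouse 616 was highest in WT, at -0.057 against -1.419 for mouse 624. Of the muscles labelled KO mouse 597 was highest, at 0.775 against 0.047 for mouse 611 and -0.693 for mouse 561. The part of fat cells or of these other cells in the level of either gene was not tested.

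**Figure D4:**
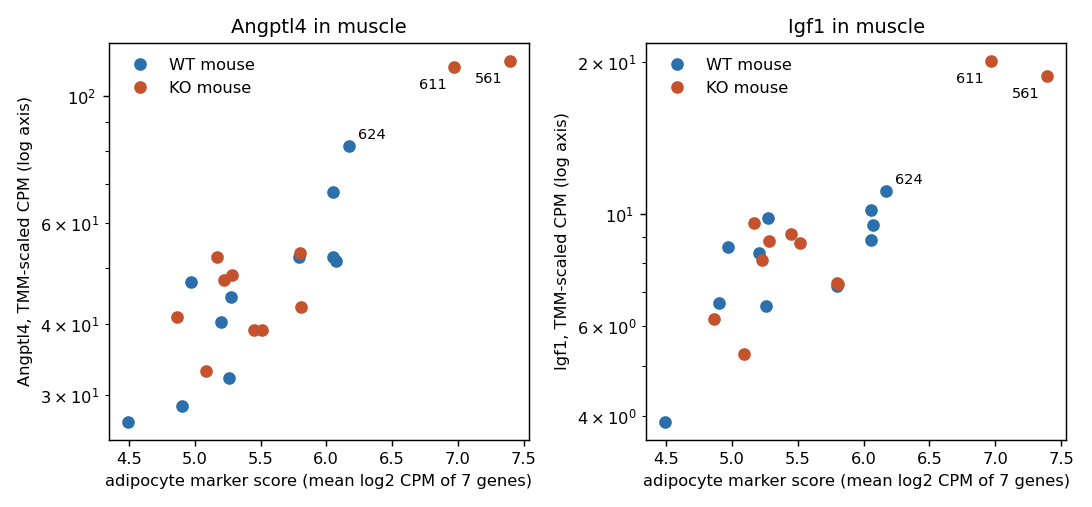
Angptl4 (left) and Igf1 (right) in muscle, TMM-scaled CPM on a log axis (y), against the adipocyte marker score, the mean log2 CPM of 7 genes (x), a point per mouse, 11 WT and 11 labelled KO. Mice 561 and 611 stand apart at scores of 7.39 and 6.97, and the WT muscles climb with the score at r = 0.86 for Angptl4 and r = 0.75 for Igf1.

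The same mouse gave a liver and a muscle value, which allowed the level in one tissue to be set against that in the other for 3 members. None of the 6 relations passed adjustment over 48. For Angptl4 in KO mice r was -0.65 (permutation p = 0.029, adjusted p = 0.13) and rho -0.75 (permutation p = 0.011, adjusted p = 0.14), and without the 2 mice farthest from the median liver level, 602 and 597, r was -0.86 (adjusted p = 0.038, n = 9). Among the 9 mice kept, 611 and 561 had the lowest liver values, 145 and 174 CPM. The same mice had the highest muscle values, 112 and 115 CPM, with the next at 53.2 CPM, and r without them was not computed. The mice kept included 532, 583 and 611, whose livers had a slope on gene length below 0. In WT mice r was -0.45 (permutation p = 0.16, adjusted p = 0.38) and rho -0.57 (permutation p = 0.072, adjusted p = 0.26). For Igf1 r was -0.66 (permutation p = 0.031, adjusted p = 0.13) and rho -0.48 (adjusted p = 0.33) in WT mice, with r at -0.23 without mice 536 and 531, and r was 0.44 (permutation p = 0.18, adjusted p = 0.38) and rho 0.24 (adjusted p = 0.65) in KO mice. Fst gave r = 0.43 and rho = 0.29 in WT (adjusted p = 0.38 and 0.56) and r = 0.53 and rho = 0.47 in KO mice (adjusted p = 0.28 and 0.33). The difference between genotypes was not tested.

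Across livers the members did not all vary together, and each had genes outside the list closer to it than any member, as given below. Genotype-centred levels over the 18 livers with a slope of 0 or more gave a Spearman's rho of 0.89 between Fetub and Igfbp2, 0.8 between Fetub and Igf1, 0.7 between Igf1 and Igfbp2, and 0.56 to 0.62 between Angptl4 and these 3. Lect2 went the other way, with rho between -0.58 and -0.72 against the same 4, and its closest member was Angptl8 at 0.59. Fgf21 and Gdf15 had a rho of 0.48. In the 22 muscles Angptl4 and Igf1 had a rho of 0.8 and both were negative with Mstn, at -0.45 and -0.48. These values describe libraries that share depth and composition and carry no test.

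**Figure D5:**
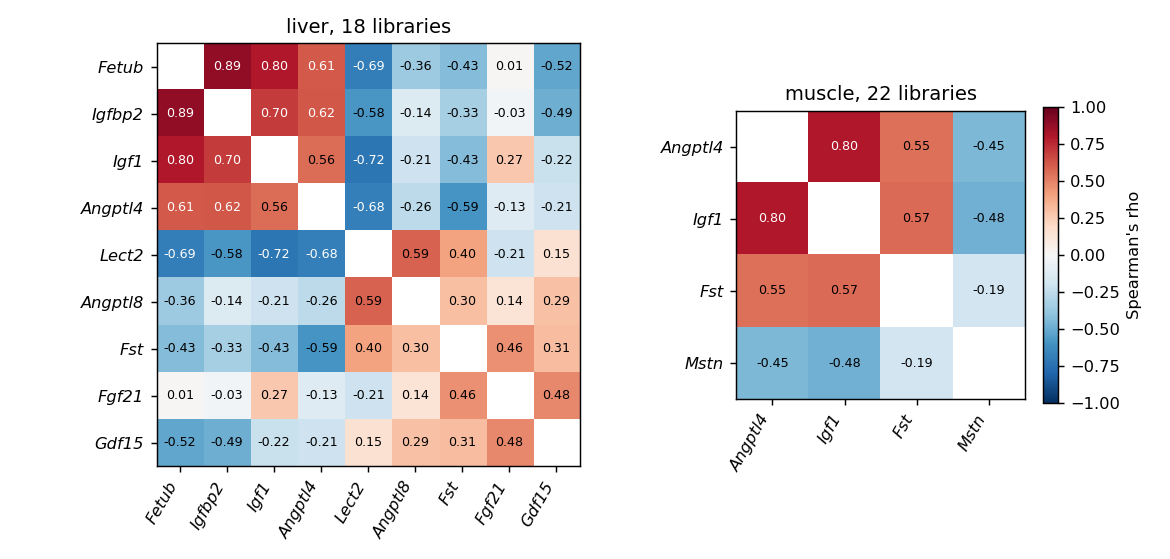
Spearman's rho (colour and printed value) between members, from genotype-centred log2 CPM, over the 18 livers with a slope on gene length of 0 or more (left, 9 members) and the 22 muscles (right, 4 members). Fetub, Igfbp2, Igf1 and Angptl4 form a positive block in liver, from 0.56 to 0.89, against which Lect2 is negative.

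The genes whose pattern was most like each member were searched among 11815 genes in those 18 livers. For Igf1 they were Serpina1e, Slco1a1 and Gtf2a1 (rho 0.91 each), for Igfbp2 Slco2a1 (0.95), Cyp2c54 and Serpina1a (0.94 each), and for Fetub 1300017J02Rik, Cyp4f13 and Serpina1d (0.94 each), so that an alpha-1-antitrypsin gene (Serpina1 family) stood in each of the 3 lists. The genes of this family are near-identical copies, and how reads were divided among them was not tested. For Angptl4 they were Zfhx2 (0.92), Nop16 and Pck1 (0.9 each), the last being the gluconeogenic enzyme PEPCK. Fgf21 was closest to Arl4a (0.85), Bik (0.81) and Klf11 (0.8), and Gdf15 to Cs (0.85), Nenf (0.84) and Slc23a1 (0.83). Among the genes most like Angptl8 were Cit (0.83) and 9130409I23Rik (0.81). Lect2 was closest to Fmo1 (0.88), 1810058I24Rik (0.85) and Mpc1 (0.84), and Fst to Ankrd50, Rhod (0.89 each) and Tnfaip2 (0.88).

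Among 11912 genes in the 22 muscles, Igf1 was closest to Dbi, Cavin2 (0.92 each) and Adig (0.91), the last an adipocyte gene that was not among the 7 markers. Among the genes most like Angptl4 were Stambpl1 and C130074G19Rik (0.93 each). Mstn was closest to Nudcd3 (0.85), Pds5b (0.84) and Arfgap2 (0.83), and Fst to Mylip (0.88), Ypel2 (0.87) and Pla2g15 (0.82).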

How the data were processed

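Poly(A)-selected, stranded libraries of both tissues of each HFD-fed animal, 11 per genotype, were sequenced as 85-base single-end reads. Libraries were pooled by 11, and since the members of a pool are not given, pool and group cannot be told apart. The authors deposited raw read counts per gene and, in a second table, RPKM values per library; the submitters' processing notes name limma, and the aligner, the counter and the genome build are not given in the sources used here. Group and animal number came from the labels, and a liver and a muscle with 1 number were taken to be from 1 mouse. Liver and muscle deviations of the same mouse correlated at a mean of 0.07 in WT and 0.09 in KO mice, against -0.01 between different mice.

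Totals ranged from 20150712 to 35218243 reads, which set the precision of low counts, and a floor of 3 reads was used. Between libraries of 1 group 0 pairs were identical, and the smallest chi-square per gene was 4.26. The length implied by count and RPKM was off by over 1% from its gene's median in 45.8% of values, so RPKM served only to order levels between genes and as an alternative. Symbols were found for 36340 of 38202 identifiers.

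The quasi-likelihood F-test of edgeR 4.0.16 (R 4.3.3) was run on the counts after TMM scaling and the filterByExpr filter, with a threshold of 0.05 on p adjusted by Benjamini-Hochberg. Each comparison used the libraries of its groups, and the interaction all 44. Relations across mice used log2 CPM (prior count 2) and two-sided permutation tests with 100000 resamples (Python 3.11.15, scipy 1.17.1). Alternatives were DESeq2 1.42.0, limma 3.58.1 (voom, and on RPKM), library size alone, other filters, gene length removed by loess, marker scores as covariates, mouse as replicate block, and mice left out. The procedure was tested on simulated counts. The members and the 10 pathway and 12 marker lists were chosen with earlier results of these data known. Named besides the members were genes of each list past the threshold, else the 2 with the smallest p in a tissue, and the 3 genes most like each member, of which 2 are not reported here.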

Additional observations from a re-analysis of the deposited data

How the results depend on the processing

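No member was called between genotypes under any alternative run, and all 10 kept direction and call between tissues. The count of genes called in liver was 3, and 6 with DESeq2, 4 without a filter, 2 with gene length removed or without the livers with a slope below 0 and mouse 624, and 1 with a minimum of 10 counts in every library. In muscle it was 1, and 0 with limma-voom, without a filter, with that minimum, with RPKM at either pseudocount, with the hepatocyte score as a covariate, and without the muscles of mice 561, 611 and 624 (chosen after seeing the data). The interaction called 1 gene, and 3 with library size alone. Leaving out each mouse in turn gave 3 to 3 calls in liver and 1 to 1 in muscle. With mouse as replicate block the paired fits called 1 gene for the interaction, 12674 in WT (12653 unpaired) and 12107 in KO mice (12117 unpaired) between tissues, and no call of a member changed. Of 48 relations across mice 7 passed adjustment by r and 0 by rho, and 1 without the 2 farthest mice in each. The causes were not tested.

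Some log2 fold changes changed sign, none of them called. In liver these were Fgf21 (-0.06 with gene length removed, -0.01 and 0 without mouse 586 or 583, with -0.01 to 0.32 over all mice left out), Igf1 (0.02 with RPKM at both pseudocounts), Angptl8 (-0.07 with length removed, -0.02 without mouse 532 and up to 0.34 without others, -0.31 without the livers with a slope below 0, -0.15 when mouse 624 was left out too) and Lect2 (0 with library size alone, -0.12 with length removed, -0.02 with RPKM, -0.03 without mouse 532 and up to 0.11, -0.1 and -0.09 under the last 2 settings). Among list genes in liver they were Fgfr1 (-0.05 and -0.03) and Igfbp4 (-0.03) with RPKM, Apoc3 (-0.03 and -0.02, and up to 0.41 without single mice) and Rarres2 (-0.02 and -0.01, and up to 0.35) without those livers, and Smad3 (0 with length removed). In muscle they were Igf1 (-0.02), Angptl4 (0) and Mstn (0.01) without mice 561, 611 and 624, Mstn also without mouse 611 (0.02) and with the hepatocyte score (0.07), Klb (-0.1 with the adipocyte score, -0.35 without those mice), Tie1 (0.01 without mouse 624 or with the fibre score) and Insr (-0.04 with length removed, -0.02 to -0.01 without mice 516, 570, 588 or 597, 0 with the hepatocyte score). The interaction of Fgf21, which rests on 1 tissue, was -0.25 with limma-voom. The settings without those livers and mouse 624 together, and without mouse 624 between WT tissues, were added after seeing the data. The 6 members with at most 16 reads in any muscle library had too few for a genotype test there.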
